A study of Homo sapiens with 16 samples.

Results

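The 10 genes described here mark or drive the mesenchymal state. VIM, FN1, CDH2, TNC and FST are markers of cells that have left the epithelial state, and SNAI1, SNAI2, ZEB1, ZEB2 and TWIST1 encode transcription factors that can bring that change about. They were chosen by name, and each matched 1 of the 60675 Ensembl identifiers in the deposited count table. All 10 passed the filter on low counts that left 19772 genes to be tested. The cells were H9, an established human embryonic stem cell line, of the genotype labelled Rex1-EGFP, grown without feeder cells on Matrigel in mTeSR1. Pooled siRNAs at 30 to 50 nM were directed against SALL4 or VRTN, with RNA taken at 48 h, and against DSCC1 or SEPHS1, with RNA taken at 72 h, in 3 replicates each. The controls were Luciferase, an siRNA against Renilla luciferase, and Control, a control siRNA, with 2 replicates each and no harvest time in the labels. Knockdown and harvest time therefore cannot be told apart in any comparison with the controls. Enzymatically prepared siRNAs were used for SALL4, DSCC1, SEPHS1 and luciferase, pooled ones from another supplier for VRTN, and all groups have the Rex1-EGFP genotype.

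In an epithelial to mesenchymal transition, cells give up E-cadherin junctions and apical polarity, change their intermediate filaments and cadherins, and lay down a different matrix. SNAIL and ZEB proteins are zinc finger repressors that bind E-box sequences in the CDH1 promoter, and TWIST1 is a basic helix-loop-helix factor of the same programme. Human embryonic stem cells are themselves epithelial, express E-cadherin, and also carry some vimentin, and they use a transition of this kind when they form mesoderm at the primitive streak.

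In GRCh38, with GENCODE 29 annotation, VIM, the vimentin filament gene, lies at chr10:17228259-17237593 on the plus strand. FN1, fibronectin, lies at chr2:215360440-215436172 on the minus strand, and CDH2, N-cadherin, at chr18:27950966-28177446 on the minus strand. TNC, the matrix glycoprotein tenascin-C, lies at chr9:115019578-115118257 on the minus strand, and FST, the secreted activin antagonist follistatin, at chr5:53480409-53487134 on the plus strand. SNAI1 (chr20:49982999-49988886, plus strand), ZEB1 (chr10:31318495-31529814, plus), ZEB2 (chr2:144364364-144524583, minus) and TWIST1 (chr7:19020991-19117672, minus) encode factors. All 10 genes are protein-coding, and the values count reads over their exons. Antisense genes share exon bases with VIM (641 bases with VIM-AS1), ZEB1 (366 with ZEB1-AS1) and ZEB2 (1299 with ZEB2-AS1), and DEC1, on the opposite strand, shares 129 with TNC. Their own rows held 0 to 10 counts for VIM-AS1 and ZEB2-AS1, 0 to 106 for ZEB1-AS1 and 0 to 38 for DEC1. The strand setting of the counting is not given in the sources used here.

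RefSeq promoter sequences on GRCh38.p14 were found for 7 of the 10 genes, with none for SNAI1, SNAI2 and TWIST1. The promoters of FST and TNC are shown because both genes moved together across the libraries, and those of VIM and CDH2 because both were called. Each line gives the 250 bases before the start, 5′ to 3′ on the gene's own strand, with motif matches in capitals. FST lies in chr5:53480379-53480628 (plus), TNC in chr9:115118158-115118407 (minus), VIM in chr10:17227991-17228240 (plus) and CDH2, at the more upstream of its starts, in chr18:28177131-28177380 (minus). The bases after the VIM start were not found in an annotated transcript of VIM. Those after the starts printed for FST, TNC and CDH2 were found in a transcript of their gene.
FST: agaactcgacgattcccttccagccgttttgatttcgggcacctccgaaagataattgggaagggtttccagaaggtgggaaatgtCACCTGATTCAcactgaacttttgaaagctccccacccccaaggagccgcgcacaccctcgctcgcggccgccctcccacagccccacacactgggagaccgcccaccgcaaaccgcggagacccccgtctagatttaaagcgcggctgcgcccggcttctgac
TNC: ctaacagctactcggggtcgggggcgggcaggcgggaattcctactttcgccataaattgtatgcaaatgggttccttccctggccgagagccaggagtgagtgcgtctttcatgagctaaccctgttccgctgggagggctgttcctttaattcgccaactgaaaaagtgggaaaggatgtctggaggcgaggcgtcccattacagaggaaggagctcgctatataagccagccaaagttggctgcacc
VIM: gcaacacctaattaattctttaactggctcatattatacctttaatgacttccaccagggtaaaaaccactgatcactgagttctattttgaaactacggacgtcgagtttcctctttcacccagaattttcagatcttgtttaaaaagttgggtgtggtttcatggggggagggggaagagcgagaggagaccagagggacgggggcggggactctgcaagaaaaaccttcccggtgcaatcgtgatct
CDH2: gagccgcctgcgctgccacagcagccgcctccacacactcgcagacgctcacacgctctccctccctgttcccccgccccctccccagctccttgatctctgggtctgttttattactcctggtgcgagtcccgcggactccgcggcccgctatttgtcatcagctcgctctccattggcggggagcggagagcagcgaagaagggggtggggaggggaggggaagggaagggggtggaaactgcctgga

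The motifs searched, on both strands, were the E-box CACCTG bound by SNAIL and ZEB factors (CAGGTG on the other strand), the AP-1 motif TGANTCA, the TATA motif TATAAA and the TEAD motif GGAATG. The FST window held CACCTG at bases -164 to -159 and TGATTCA at bases -160 to -154, counted from the start, and the capitals mark this overlapping pair. Of 35116 human promoter windows of the same length, 17.5% held CACCTG on either strand, 6.57% TGANTCA, 10.7% TATAAA and 11.9% GGAATG. The windows of TNC, VIM, FN1 and ZEB2 and the upstream start of CDH2 held no exact match to these motifs. Near matches to the TATA motif, such as tatataag in the TNC window, were not counted. The downstream start of CDH2 held TGAATCA and TATAAA, and the starts of ZEB1 held 3 matches to the E-box in all. The bases after that CDH2 start were not found in an annotated CDH2 transcript. The same held for the ZEB1 start with CAGGTG at bases -57 to -52, and for a ZEB1 start without a match. Whether these starts, and that of VIM, are used in these cells was not tested. A match is a run of letters and not a measured binding site.

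Library totals ran from 18597262 to 28662389 counts, and 3 counts corresponded to between 0.102 and 0.175 CPM, a floor that covers counting error only. The knocked-down transcript stood at 77.9% of the controls in SALL4 siRNA cells (adjusted p = 0.0562), 14.9% in VRTN siRNA cells (adjusted p = 2.04e-16), 20.5% in DSCC1 siRNA cells (adjusted p = 0.486) and 14.9% in SEPHS1 siRNA cells (adjusted p = 9.09e-15) by edgeR's quasi-likelihood test. SEPHS1 also stood at 207 CPM (174.5 to 248.6) in SALL4 siRNA cells, against 410 CPM (381.1 to 440.5) in the controls. It had 354 CPM in VRTN and 352.5 CPM in DSCC1 siRNA cells. The part of SEPHS1 in the SALL4 results was not tested. The summed level of 10 pluripotency markers was 3732 to 3913 CPM in SALL4 siRNA cells, 4960 to 5357 in VRTN, 4910 to 4958 in DSCC1 and 4718 to 4994 in SEPHS1 siRNA cells, against 4624 to 5346 CPM in the controls, and ZFP42, the gene named REX1, was listed at 0 in all 16 libraries. Of 9 tested, DNMT3B and PODXL alone were called in SALL4 siRNA cells, both lower, where 2.98% of all genes were called. POU5F1 averaged 237 CPM (233.9 to 242.7) there, against 198 CPM (188.5 to 207.5) in the controls. NANOG averaged 125.7 CPM (76.13 to 157.8) against 86.01 (73.08 to 98.19). SOX2 averaged 216.4 CPM (189.6 to 232.4) against 198.4 (178.0 to 206.9). The sum of 10 fibroblast markers was 797 to 1715 CPM in SALL4, 796 to 1210 in VRTN, 1969 to 2220 in DSCC1 and 1554 to 1841 in SEPHS1 siRNA cells, against 1830 to 2067 CPM in the controls, while FAP was at 0 in all 16 libraries and DCN never exceeded 10 counts. COL1A1 alone averaged 1653 CPM in the controls, 933 in SALL4 and 678 in VRTN siRNA cells, so the fibroblast sum mostly followed COL1A1. The median log2 fold change of the 7 tested fibroblast markers was 0.41 in SALL4 and 0.36 in VRTN siRNA cells. Among neural crest markers TFAP2A, TFAP2B and PAX7 never exceeded 10 counts. In bulk RNA, fewer cells of a type and less RNA per cell cannot be told apart.

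Levels are counts scaled to the TMM library size (CPM), errors are SDs, and fold changes are log2 values, siRNA minus controls, with the SE. A gene is called when its Benjamini-Hochberg adjusted p over the 19772 genes is below 0.05 in edgeR's quasi-likelihood test, with 3 libraries of an siRNA against the 4 controls. The 4 comparisons share these 4 control libraries, so their results are not independent of each other.

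Per kilobase of exon, the genes spanned a wide range of levels. The length used joins all exons annotated to a gene over its transcripts: 17315 bases for FN1, 25058 for ZEB2 and 1686 for SNAI1. A single transcript can be shorter, so the order below depends on this choice of length. Before division by length, FN1 averaged 207.8 CPM and SNAI1 21.4 CPM. VIM was the most abundant by mean over the 16 libraries, at 110.8 CPM per kilobase. SNAI1 followed at 12.7 and FN1 at 12.0, with CDH2 at 7.95, FST at 6.54, TNC at 3.32 and SNAI2 at 1.00 CPM per kilobase. ZEB2, at 0.128, ZEB1, at 0.117, and TWIST1, at 0.0757 CPM per kilobase, had the lowest levels per length. Libraries with 0 counts numbered 3 for ZEB1, 4 for ZEB2 and 12 for TWIST1. Among the 5 factors SNAI1 thus had the highest level per length.

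**Figure D1:**
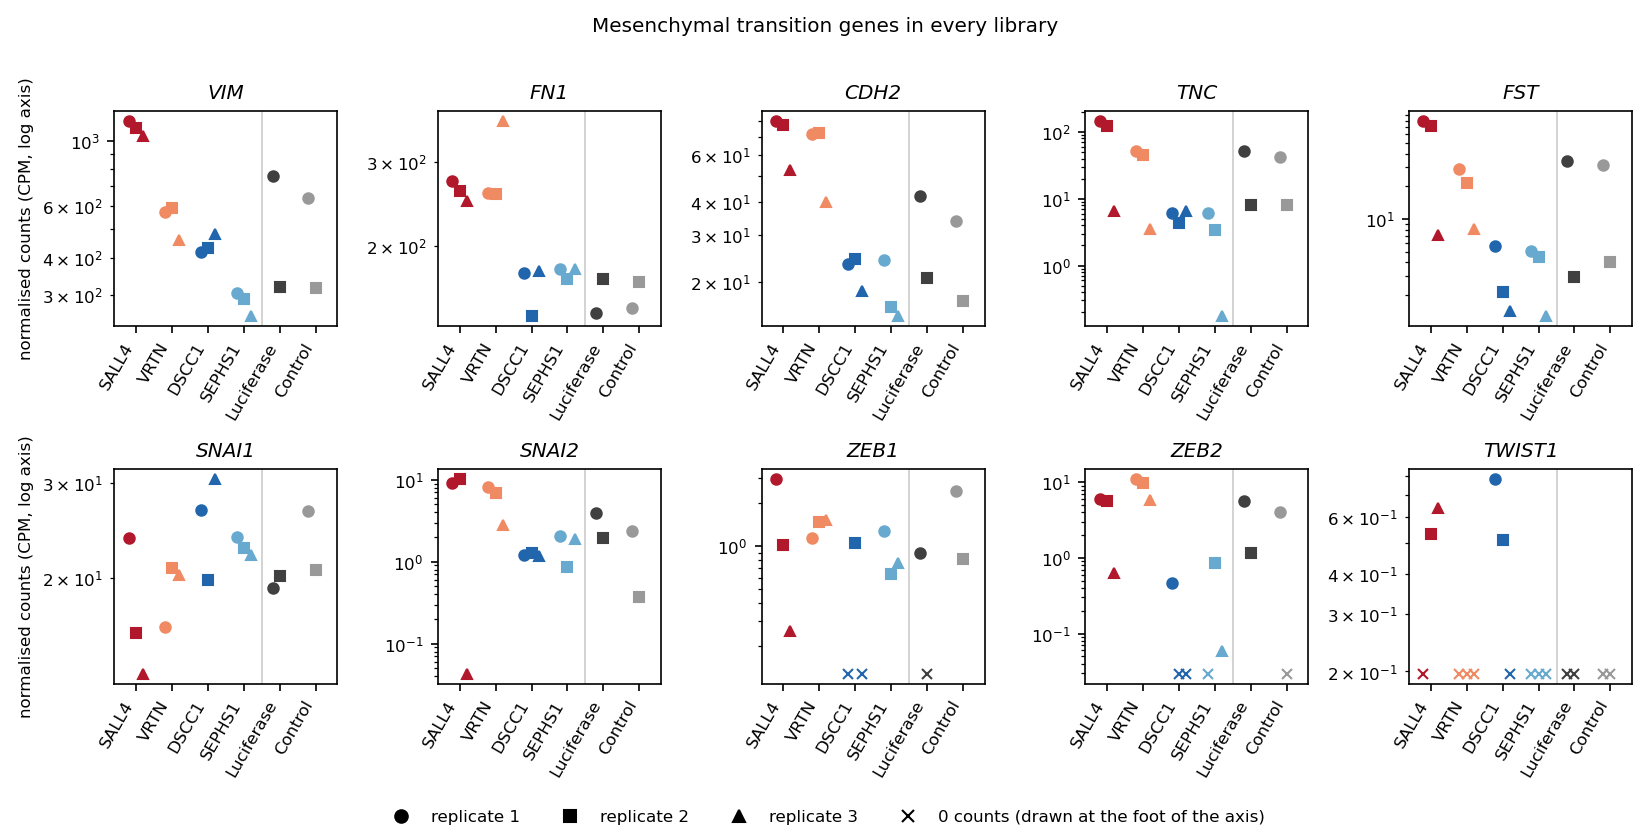
Level of each gene in each of the 16 libraries, as normalised counts (CPM) on a log axis with its own range in every panel. Each point is 1 library, its shape gives the replicate number, and crosses at the foot of an axis are libraries with 0 counts. VIM, CDH2, TNC and FST are higher in replicate 1 than in replicate 2 of both control siRNAs, and TNC, FST and SNAI2 have their lowest value within the SALL4 and VRTN groups in replicate 3.

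The controls themselves differed by replicate number, in both siRNAs alike. VIM stood at 319 and 316 CPM in replicate 2 of Luciferase and Control, against 757 and 640 CPM in replicate 1. FST stood at 2.96 and 4.01 CPM in replicate 2, against 34.0 and 31.5 CPM in replicate 1, and TNC at 7.96 and 8.13 against 52.5 and 41.6 CPM. Replicate 2 thus lay below replicate 1 in both siRNAs for these 3 genes. The split by number, which joins a Luciferase and a Control library, was made with earlier results of these data known. Those results showed the controls to differ by number, so the p values below are no separate test of that difference. With the controls regrouped by number, 1 of the 10 genes was called, where 0.0152% of all genes were. This was VIM, lower in replicate 2 by a log2 change of -1.14 (SE 0.13, edgeR adjusted p = 1.61e-05). The values for the other markers were -3.23 (SE 0.67, adjusted p = 0.087) for FST, -1.005 (SE 0.26, adjusted p = 0.31) for CDH2, -2.55 (SE 0.82, adjusted p = 0.846) for TNC and 0.21 (SE 0.15, adjusted p = 1) for FN1, and none of these was called. For 7 of the 10 genes both replicate 2 libraries lay below both replicate 1 libraries, as did 18.7% of all genes, and FN1 lay above, as did 17.5%.

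CDH1, the E-cadherin gene and a repression target of the SNAIL and ZEB factors, stood the other way round, at 290 and 325 CPM in replicate 2 against 195 and 200 CPM in replicate 1. Over all genes 17.5% lay wholly above in replicate 2. Of 39 epithelial genes from a list, CDH1 among them, 0 were called between the control numbers, where 0.0152% of all genes were. Their median log2 change was 0.23, beside 0 over all genes. The summed level of 10 neural crest markers was 86.3 to 89.8 CPM in replicate 2 and 156 to 178 CPM in replicate 1. Its part in the difference was not tested. Between the siRNAs themselves, Control against Luciferase, edgeR called 0 of 19772 genes, with 211 at an unadjusted p below 0.05. The labels do not say what a replicate number stands for. Each comparison is therefore also given against replicate 1 and against replicate 2 of the controls.

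In SALL4 siRNA cells 3 of the 10 genes were called, all higher, where 2.98% of all genes were called and 1.85% were called higher. They were VIM, FN1 and CDH2, and in each the 3 knockdown libraries lay above all 4 controls, as they did for 6.82% of all genes. The median log2 fold change of the 9 genes that gave one was 1.12 in SALL4 siRNA cells, beside 0.02 over all genes, and 0.70 and 1.89 against control replicates 1 and 2. It was 0.69 in VRTN, -0.72 in DSCC1 and -0.62 in SEPHS1 siRNA cells, beside 0.02, 0.00 and -0.02 over all genes. Between control replicate 2 and replicate 1 it was -1.43, beside 0 over all genes. In VRTN siRNA cells 2 of the 10 were called, FN1 and CDH2, both higher, where 1.13% of all genes were called and 0.445% called higher. In DSCC1 siRNA cells edgeR called 0 of the 10, where 0.0455% of all genes, 9 in number, were called and 1155 genes had an unadjusted p below 0.05. In SEPHS1 siRNA cells 2 of the 10 were called, VIM and TNC, both lower, where 1.53% of all genes were called and 0.931% called lower. Against control replicate 1 alone, 3, 1, 2 and 4 of the 10 genes were called in SALL4, VRTN, DSCC1 and SEPHS1 siRNA cells, where 1.37%, 0.663%, 0.116% and 1.59% of all genes were. Against control replicate 2 alone the counts were 5, 4, 0 and 0 in that order, where 2.55%, 0.835%, 0.0101% and 0.582% of all genes were called, and for the pair of 0 counts 760 and 1848 genes had an unadjusted p below 0.05.

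Markers of other cell types that express these genes were counted beside them. Over all genes 2.98%, 1.13%, 0.0455% and 1.53% were called in SALL4, VRTN, DSCC1 and SEPHS1 siRNA cells. Of 7 tested neural crest markers, ETS1 alone was called, higher in SALL4 and lower in SEPHS1 siRNA cells, and the summed level of the 10 listed was 90.8 to 197 CPM in SALL4, 42.7 to 99.2 in VRTN, 79.5 to 99.7 in DSCC1 and 52.5 to 69.4 in SEPHS1 siRNA cells, against 86.3 to 178 CPM in the controls. Of 7 tested primitive streak and mesoderm markers, KDR, a mesodermal growth factor receptor, was higher in SALL4 siRNA cells, where the sum of 10 was 69.5 to 164 CPM, against 62.1 to 79.2 CPM in the controls, and MSGN1 was at 0 throughout. Of 7 tested fibroblast markers COL1A1 alone was called, lower in SALL4 and VRTN siRNA cells. The part of such cells in the results was not tested.

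VIM had 1169, 1102 and 1037 CPM in the SALL4 libraries, 572, 590 and 461 in the VRTN libraries, 418, 433 and 482 in the DSCC1 libraries and 305, 290 and 254 in the SEPHS1 libraries, against 757 and 319 CPM for Luciferase and 640 and 316 CPM for Control. All SALL4 libraries were above every other library and all SEPHS1 libraries below every other, while the VRTN and DSCC1 libraries lay inside the control range. Over all genes 6.82% lay wholly above the controls in SALL4 and 7.76% wholly below them in SEPHS1 siRNA cells. The mean of 1103 ± 65.7 CPM in SALL4 siRNA cells against 508 ± 225 CPM in the controls gave a log2 change of 1.12 (SE 0.18, adjusted p = 0.000185). The change was 0.66 (SE 0.12, adjusted p = 0.00188) against control replicate 1 and 1.80 (SE 0.13, adjusted p = 2.47e-11) against control replicate 2. The rise of vimentin in SALL4 siRNA cells was therefore called against either pair of controls, with a size that depended on the pair.

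The lower VIM level in SEPHS1 siRNA cells, 283 ± 26.3 against 508 ± 225 CPM (log2 fold change -0.84, SE 0.19, adjusted p = 0.0128), differed between the control numbers. It was -1.30 (adjusted p = 1.69e-08) against replicate 1 and -0.17 (adjusted p = 0.666) against replicate 2 of the controls. The call was lost without SEPHS1 replicate 2 (adjusted p = 0.0577) or replicate 3 (0.112), and the value was -0.47 without Luciferase replicate 1 and -0.55 without Control replicate 1. DESeq2 (adjusted p = 0.0784) and limma-voom (0.21) did not call it, nor did edgeR against Control alone (0.125) or with only the groups compared (0.121). In DSCC1 siRNA cells VIM was called lower against replicate 1 alone (-0.65, adjusted p = 0.0125), where 0.116% of all genes were called, and not against all controls (-0.19, SE 0.18, adjusted p = 0.972) or replicate 2 (0.49, adjusted p = 0.612). In VRTN siRNA cells it stood at 0.09 (SE 0.18, adjusted p = 0.969) against all controls, at -0.37 (adjusted p = 0.238) against replicate 1 and at 0.77 (adjusted p = 0.000328) against replicate 2, where 0.835% of all genes were called. Without Luciferase replicate 1, which left 1 library of that control siRNA, VIM stood at 0.47 in VRTN siRNA cells.

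FN1 had 274, 261 and 249.0 CPM in the SALL4 libraries, 259, 257 and 366 in the VRTN libraries, 176, 143 and 178 in the DSCC1 libraries and 179, 171 and 180 in the SEPHS1 libraries, against 145 and 171 CPM for Luciferase and 149 and 169 CPM for Control. The libraries of both 48 h knockdowns were all above the 4 controls and above both 72 h knockdowns, with the highest value in VRTN replicate 3. Over all genes 6.82% lay wholly above the controls in SALL4 and 5.27% in VRTN siRNA cells. The controls spanned less than in the other markers, with the highest 1.18 times the lowest. FN1 was higher in SALL4 siRNA cells by 0.72 (SE 0.12, adjusted p = 0.000247) and in VRTN siRNA cells by 0.89 (SE 0.12, adjusted p = 1.89e-05). Both were called against either control number, at 0.83 (adjusted p = 0.000492) and 0.62 (0.00882) with SALL4 siRNA and at 1.00 (7.89e-05) and 0.79 (0.00119) with VRTN siRNA, against replicate 1 and replicate 2 in that order. Both calls also held in each of the 28 alternative settings. FN1 stood at 0.07 (SE 0.12, adjusted p = 1) in DSCC1 siRNA cells. In SEPHS1 siRNA cells its libraries all lay just above the controls, as did 5.25% of all genes, with a change of 0.16 (SE 0.12) that was not called (adjusted p = 0.609).

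CDH2 had 80.1, 77.7 and 52.6 CPM in the SALL4 libraries, 71.7, 72.1 and 39.8 in the VRTN libraries, 23.35, 24.4 and 18.6 in the DSCC1 libraries and 24.1, 16.2 and 14.95 in the SEPHS1 libraries, against 42.15 and 20.8 CPM for Luciferase and 33.8 and 17.0 CPM for Control. The SALL4 libraries were above all controls, whereas VRTN replicate 3 fell just under Luciferase replicate 1. Replicate 3 was the lowest library of both 48 h groups. The log2 fold change was 1.31 (SE 0.23, adjusted p = 0.000584) in SALL4 siRNA cells, and 0.89 (adjusted p = 0.0488) and 1.89 (adjusted p = 9.95e-06) against replicate 1 and replicate 2 of the controls. In VRTN siRNA cells it was 1.11 (SE 0.23, adjusted p = 0.00733), and 0.69 (adjusted p = 0.291) and 1.69 (adjusted p = 9.21e-05) against the same pairs. The VRTN call was lost against Luciferase alone (adjusted p = 0.18), with only the groups compared in the fit (0.0519), and without VRTN replicate 1 (0.0798) or replicate 2 (0.0828).

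N-cadherin was not called in the 72 h knockdowns against all controls, at -0.35 (SE 0.24, adjusted p = 0.887) with DSCC1 siRNA and -0.62 (SE 0.24, adjusted p = 0.242) with SEPHS1 siRNA. Against control replicate 1 it was called lower in SEPHS1 siRNA cells, at -1.04 (adjusted p = 0.0125), where 1.59% of all genes were called. With SEPHS1 siRNA it stood at -0.83 without Luciferase replicate 2 and -0.82 without Control replicate 2, fits that leave 1 control siRNA with a lone library. Against control replicate 2 the SEPHS1 value was -0.04 (adjusted p = 1).

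**Figure D2:**
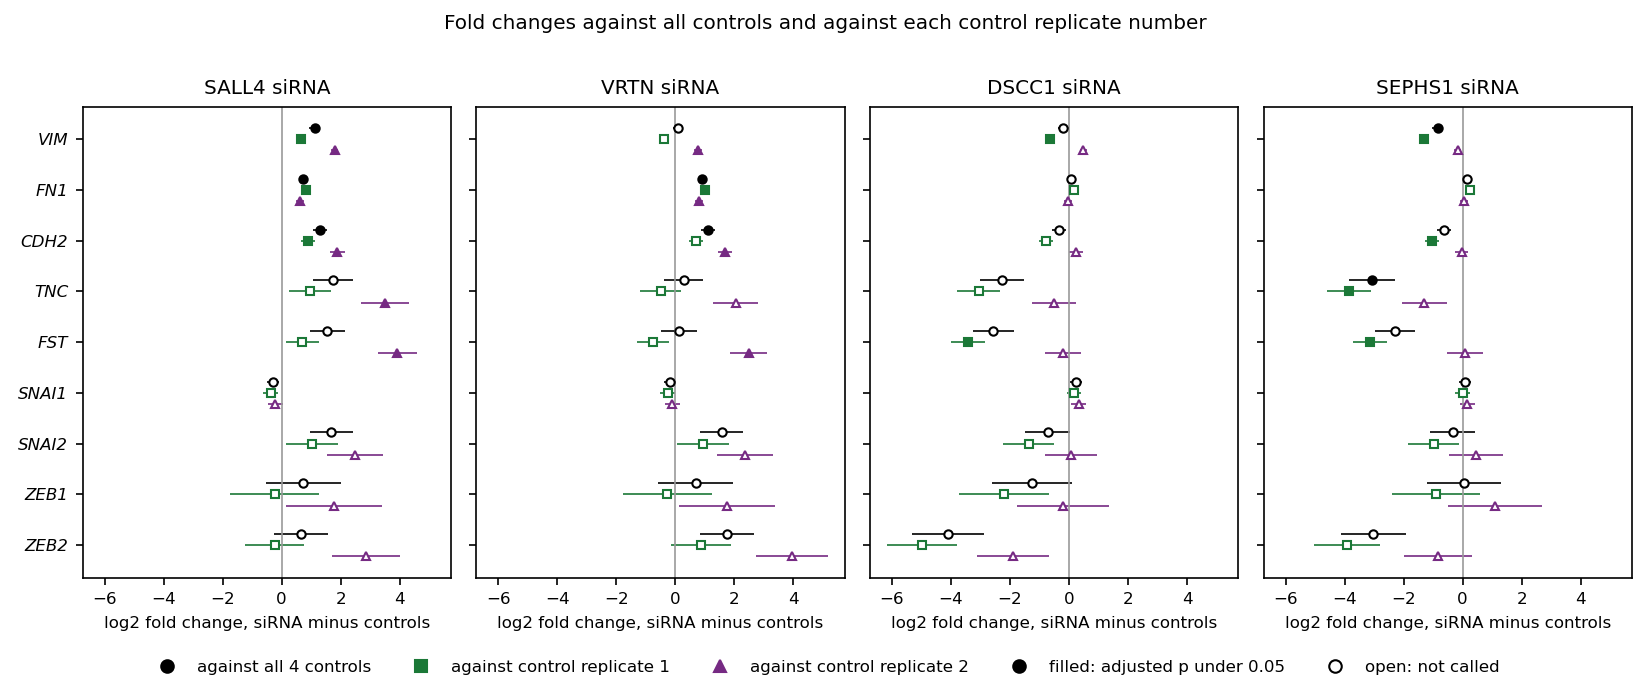
Log2 fold change of each gene that gave one (rows), siRNA minus controls, in the 4 knockdowns (panels), against all 4 controls, control replicate 1 or control replicate 2. Bars are 1 SE, and filled symbols have an edgeR adjusted p under 0.05. FN1 is called in the SALL4 and VRTN panels against each set of controls. Every gene but FN1 lies further right against replicate 2 in each panel. For each gene that shift is the same control difference drawn again in every panel.

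TNC had 146, 121.5 and 6.48 CPM in the SALL4 libraries, 51.2, 45.45 and 3.535 in the VRTN libraries, 6.20, 4.34 and 6.525 in the DSCC1 libraries and 6.02, 3.41 and 0.175 in the SEPHS1 libraries, against 52.5 and 7.96 CPM for Luciferase and 41.6 and 8.13 CPM for Control. Replicates 1 and 2 of SALL4 were above every other library, replicate 3 was below all 4 controls, and the 6 libraries of the 72 h knockdowns were all below the controls. SEPHS1 replicate 3 had 3 counts, at the floor. In SALL4 siRNA cells, 91.4 ± 74.6 against 27.6 ± 23.0 CPM in the controls gave a log2 change of 1.74 (SE 0.67, adjusted p = 0.2), which was not called. It was 0.96 (adjusted p = 0.744) against control replicate 1 and 3.51 (adjusted p = 0.0126) against control replicate 2, where 2.55% of all genes were called. Tenascin-C was called higher in SALL4 siRNA cells without SALL4 replicate 3 (2.30, adjusted p = 0.00892). It stood there at 2.70 without Luciferase replicate 1, 1.34 without Luciferase replicate 2 and 2.55 without Control replicate 1. Each of these 3 fits left 1 control siRNA with a lone library. In VRTN siRNA cells it stood at 0.29 (SE 0.67, adjusted p = 0.982).

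In SEPHS1 siRNA cells TNC was called lower, at 3.20 ± 2.93 against 27.6 ± 23.0 CPM (log2 fold change -3.07, SE 0.79, adjusted p = 0.0394), and all 3 libraries lay below the controls, as did 7.76% of all genes. Against control replicate 1 it was -3.85 (adjusted p = 0.00408), and against replicate 2 it was -1.30 (adjusted p = 0.604). The call was lost without SEPHS1 replicate 1 (adjusted p = 0.051), replicate 2 (0.14) or replicate 3 (0.204), without DSCC1 replicate 1 (0.0695), replicate 2 (0.0615) or replicate 3 (0.0647), and without VRTN replicate 2 (0.0515). It was also lost in DESeq2 (0.135) and limma-voom (0.702), against Luciferase alone (0.0799) or Control alone (0.149), with a stricter filter (0.0964) and with only the groups compared (0.0604). In DSCC1 siRNA cells the libraries were likewise all below the controls, as were 4.49% of all genes, with a log2 change of -2.27 (SE 0.75, adjusted p = 0.544) that was not called. The value was -2.67 without Luciferase replicate 2 and -2.64 without Control replicate 2, fits that leave 1 control siRNA with a lone library.

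FST had 79.9, 72.1 and 7.16 CPM in the SALL4 libraries, 29.1, 21.6 and 8.10 in the VRTN libraries, 5.64, 2.15 and 1.44 in the DSCC1 libraries and 5.09, 4.52 and 1.28 in the SEPHS1 libraries, against 34.0 and 2.96 CPM for Luciferase and 31.5 and 4.01 CPM for Control. The order of libraries resembled that of TNC: replicates 1 and 2 of SALL4 were highest, and replicate 3 of SALL4 and of VRTN lay below 10 CPM, as did control replicate 2 and the 72 h knockdowns. Follistatin was called in no comparison with all 4 controls. The values were 1.55 (SE 0.60, adjusted p = 0.209) with SALL4 siRNA, 0.12 (SE 0.61, adjusted p = 1) with VRTN siRNA, -2.56 (SE 0.69, adjusted p = 0.281) with DSCC1 siRNA and -2.30 (SE 0.68, adjusted p = 0.0884) with SEPHS1 siRNA.

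Against control replicate 1, FST was called lower in DSCC1 siRNA cells (-3.42, adjusted p = 0.00589) and in SEPHS1 siRNA cells (-3.15, adjusted p = 0.0017). Against control replicate 2 it was called higher in SALL4 siRNA cells (3.92, adjusted p = 0.000456) and in VRTN siRNA cells (2.49, adjusted p = 0.0459). It was not called against control replicate 1 in SALL4 (0.70, adjusted p = 0.769) or VRTN siRNA cells (-0.74, adjusted p = 0.832), nor against replicate 2 in DSCC1 (-0.19, adjusted p = 1) or SEPHS1 siRNA cells (0.07, adjusted p = 1). In SALL4 siRNA cells it was called against all controls without SALL4 replicate 3 (2.08, adjusted p = 0.0135), and in limma-voom (2.32, adjusted p = 0.033). In both 72 h knockdowns it was called without SALL4 replicate 3 (adjusted p = 0.0474 with DSCC1 siRNA and 0.0166 with SEPHS1 siRNA). For fits that left 1 control siRNA with a lone library, only the values are given. Without Luciferase replicate 1, FST stood at 2.87 in SALL4 and 1.43 in VRTN siRNA cells. Without Control replicate 1 it stood at 2.62 in SALL4 siRNA cells. Without Luciferase replicate 2 it stood at -3.00 with DSCC1 siRNA and -2.74 with SEPHS1 siRNA, and without Control replicate 2 at -2.97 and -2.71.

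**Figure D3:**
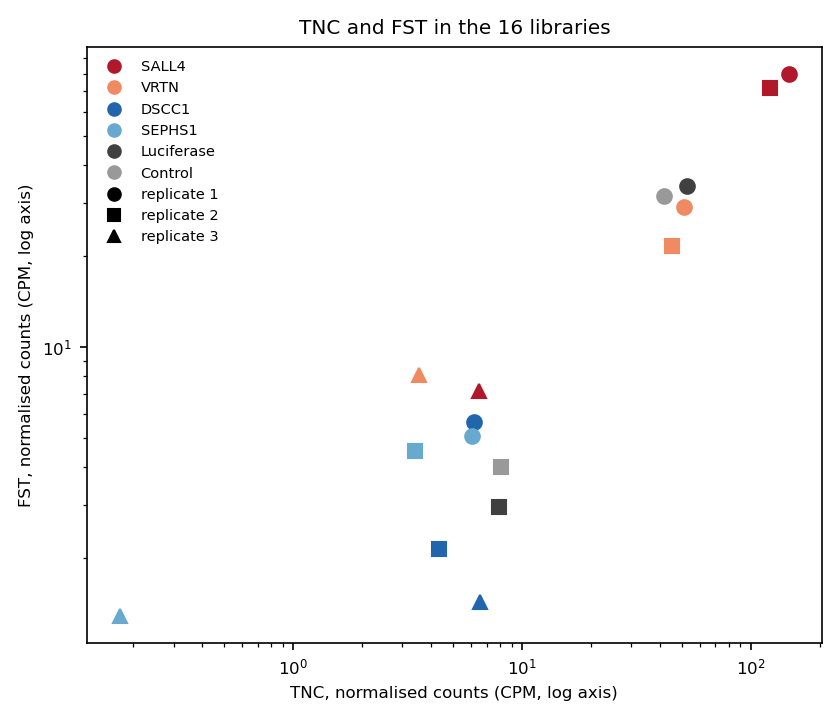
TNC (horizontal) and FST (vertical) in the 16 libraries, as normalised counts (CPM) on log axes, with colour for the siRNA and shape for the replicate number. Replicates 1 and 2 of SALL4 and VRTN and replicate 1 of both control siRNAs lie above 40 CPM of TNC and 20 CPM of FST, and the other 10 libraries lie below 10 CPM of each.

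The libraries thus fell into sets for TNC and FST that crossed the siRNA groups. Replicates 1 and 2 of SALL4 and VRTN and replicate 1 of both controls had at least 41.6 CPM of TNC and 21.6 CPM of FST. The remaining 10 libraries had at most 8.13 CPM of TNC and 8.10 CPM of FST. Since numbers 1 and 2 are high in the 48 h knockdowns and number 1 alone in the controls, the replicate number does not mark these sets across groups. Within the higher set, the SALL4 libraries lay above the controls in both genes, and the VRTN libraries lay below them in FST.

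SNAI1, which encodes SNAIL, had 23.8, 15.9 and 13.3 CPM in the SALL4 libraries, 16.3, 20.9 and 20.3 in the VRTN libraries, 26.7, 19.9 and 30.5 in the DSCC1 libraries and 23.8, 22.7 and 22.1 in the SEPHS1 libraries, against 19.2 and 20.2 CPM for Luciferase and 26.6 and 20.8 CPM for Control. Every knockdown group overlapped the controls. The log2 fold changes were -0.29 (SE 0.21, adjusted p = 0.612) with SALL4 siRNA, -0.17 (SE 0.21, adjusted p = 0.9) with VRTN siRNA, 0.25 (SE 0.20, adjusted p = 0.943) with DSCC1 siRNA and 0.09 (SE 0.20, adjusted p = 0.946) with SEPHS1 siRNA. None was called against either control number.

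SNAI2, which encodes SLUG, lies at chr8:48917604-48921740 on the minus strand. It had 9.05, 10.3 and 0.0426 CPM in the SALL4 libraries, 8.11, 6.99 and 2.84 in the VRTN libraries, 1.20, 1.29 and 1.16 in the DSCC1 libraries and 2.06, 0.853 and 1.87 in the SEPHS1 libraries, against 3.92 and 1.96 CPM for Luciferase and 2.37 and 0.374 CPM for Control. Replicate 3 of SALL4 had 1 count, while replicates 1 and 2 had 266 and 271 counts and were above every control. The groups overlapped in all 4 comparisons. The changes of 1.68 (SE 0.73, adjusted p = 0.295) with SALL4 siRNA, 1.57 (SE 0.73, adjusted p = 0.496) with VRTN siRNA, -0.72 (SE 0.77, adjusted p = 0.989) with DSCC1 siRNA and -0.34 (SE 0.76, adjusted p = 0.938) with SEPHS1 siRNA were not called. SNAI2 was called higher in SALL4 siRNA cells without SALL4 replicate 3 (2.28, adjusted p = 0.0111). Without Control replicate 1, which left 1 library of that control siRNA, SNAI2 stood at 2.61 in SALL4 siRNA cells.

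ZEB2 had 6.09, 5.68 and 0.639 CPM in the SALL4 libraries, 11.1, 9.71 and 5.88 in the VRTN libraries, 0.462, 0 and 0 in the DSCC1 libraries and 0, 0.853 and 0.0584 in the SEPHS1 libraries, against 5.71 and 1.16 CPM for Luciferase and 4.09 and 0 CPM for Control. The VRTN libraries, at 143 to 273 counts, all lay above the controls, as did 5.27% of all genes. The controls ranged from 0 to 121 counts, and the VRTN change of 1.75 (SE 0.92) was not called (adjusted p = 0.564). Without Control replicate 1 it stood at 6.05, where the remaining Control library had 0 counts. With the same library left out, ZEB2 stood at 4.94 in SALL4 siRNA cells, against 0.65 (SE 0.92, adjusted p = 0.88) with all controls. In the 72 h knockdowns the values of -4.10 (SE 1.21, adjusted p = 0.4) with DSCC1 siRNA and -3.03 (SE 1.10, adjusted p = 0.201) with SEPHS1 siRNA rested on 0 to 20 counts a library and were not called. Leaving out Luciferase replicate 2 or Control replicate 2 gave -4.47 and -4.60 with DSCC1 siRNA and -3.40 and -3.53 with SEPHS1 siRNA. Each of these fits left 1 control siRNA with a lone library.

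ZEB1 had 87, 27 and 6 counts in the SALL4 libraries, 28, 30 and 37 in the VRTN libraries, 0, 27 and 0 in the DSCC1 libraries and 26, 15 and 13 in the SEPHS1 libraries, against 19 and 0 counts for Luciferase and 71 and 24 for Control. Every group overlapped the controls, and the SEs of 1.25 to 1.35 in log2 left changes of several fold beyond detection at this depth. The values were 0.73 with SALL4 siRNA, 0.69 with VRTN siRNA, -1.25 with DSCC1 siRNA and 0.06 with SEPHS1 siRNA, with adjusted p values of 0.918, 0.965, 0.993 and 1. TWIST1 had 0, 14 and 15 counts in the SALL4 libraries, 17, 13 and 0 in the DSCC1 libraries and 0 in all 6 libraries of VRTN and SEPHS1, against 0 in all 4 controls. A count of 0 allows up to 0.102 to 0.142 CPM in the controls, where the highest library, DSCC1 replicate 1, had 0.786 CPM. No fold is given for it, and it was not called in any comparison with the controls.

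Between the 48 h knockdowns, SALL4 against VRTN, 1 of the 10 genes was called, where 2.44% of all genes were. VIM was higher in SALL4 siRNA cells, with no overlap, as for 8.63% of all genes, at 1103 ± 65.7 against 541 ± 69.8 CPM in VRTN siRNA cells (log2 fold change 1.03, SE 0.20, adjusted p = 0.00157), and remained called in all 24 alternative settings run for it. CDH2 (0.20, SE 0.25, adjusted p = 0.869) and FN1 (-0.17, SE 0.13, adjusted p = 0.641) were not called. TNC and FST had values of 1.45 (SE 0.72, adjusted p = 0.414) and 1.44 (SE 0.66, adjusted p = 0.355). SNAI2 stood at 0.11 (SE 0.77) and ZEB2 at -1.10 (SE 0.99), with adjusted p values of 1 and 0.741. The siRNAs of this pair differed in make.

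Between the 72 h knockdowns, DSCC1 against SEPHS1, edgeR called 0 of the 10 genes, where 0.268% of all genes were called and 1894 had an unadjusted p below 0.05. VIM had the only values that did not overlap, 418 to 482 CPM in DSCC1 against 254 to 305 CPM in SEPHS1 siRNA cells (0.65, SE 0.19, adjusted p = 0.188), and 8.5% of all genes lay apart in that direction. The other values ran from -1.31 (SE 1.41) for ZEB1 to 0.80 (SE 0.81) for TNC.

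Other genes of the mesenchymal and epithelial states were taken from lists. Of 40 tested mesenchymal genes outside the 10, 3 were higher and 4 lower in SALL4 siRNA cells, 2 higher and 5 lower in VRTN siRNA cells, and 5 lower in SEPHS1 siRNA cells, with 0 called in DSCC1 siRNA cells. Over all genes 2.98%, 1.13%, 1.53% and 0.0455% were called in these knockdowns. The counts moved with the setting: over the 28 alternatives 2 to 10 were higher and 1 to 5 lower in SALL4, 0 to 4 higher and 2 to 6 lower in VRTN, and 0 to 12 lower in SEPHS1 siRNA cells, where control replicate 2 alone gave 0, control replicate 1 alone 8, and no filter on low counts 12. The number higher in SALL4 siRNA cells was 8 without Luciferase replicate 1 and 7 without Control replicate 1 or SALL4 replicate 3, and the number lower in SEPHS1 siRNA cells was 11 without Luciferase replicate 2, 10 without Control replicate 2 and 9 without SALL4 replicate 3. The median log2 fold changes were 0.41, 0.01, -0.28 and -0.04 in SALL4, VRTN, SEPHS1 and DSCC1 siRNA cells, beside 0.02, 0.02, -0.02 and 0.00 over all genes. In SALL4 siRNA cells CAV1, the caveolar coat protein gene, was higher at 22.9 ± 1.72 against 9.69 ± 1.53 CPM (1.24, adjusted p = 0.00287), and CCN1, a matricellular gene, at 259 ± 10.4 against 176 ± 10.3 CPM (0.56, adjusted p = 0.00072). COL1A1, the type I collagen alpha 1 chain, was lower at 933 ± 403 against 1653 ± 119 CPM (-0.82, adjusted p = 0.00498), as was CNN1, the smooth muscle calponin (-0.74, adjusted p = 0.00122). COL1A1 was not called there with Control alone as control (adjusted p = 0.0678) or with only the groups compared (0.0921), and stood at -0.50 without SALL4 replicate 3.

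In VRTN siRNA cells COL1A1 was lower at 678 ± 164 against 1653 ± 119 CPM (-1.28, adjusted p = 4.63e-05), and CCN1 was lower at 120 ± 3.07 against 176 ± 10.3 CPM (-0.55, adjusted p = 0.00238), against its higher level in SALL4 siRNA cells. VCAN, the proteoglycan versican, was higher (0.62, adjusted p = 0.0175), and ACTA2, smooth muscle alpha actin, had 26.0 ± 16.8 against 5.93 ± 4.04 CPM (2.13, adjusted p = 0.0386). Neither was called against control replicate 1 (adjusted p = 0.232 and 0.502), or without VRTN replicate 1 (0.0941 and 0.165) or replicate 2 (0.21 and 0.315), and ACTA2 was also not called without DSCC1 replicate 1 (0.0633), DSCC1 replicate 2 (0.0569) or SEPHS1 replicate 2 (0.0525). In SEPHS1 siRNA cells TAGLN, the actin-binding transgelin, was lower at 479 ± 41.3 against 750 ± 131 CPM (-0.64, adjusted p = 0.000758). Against control replicate 2 it stood at -0.42 (adjusted p = 0.0695).

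Of 39 epithelial genes, 2 were higher and 9 lower in SALL4 siRNA cells, 4 were lower in VRTN siRNA cells, and 0 were called in DSCC1 and SEPHS1 siRNA cells, where 2.98%, 1.13%, 0.0455% and 1.53% of all genes were called in these 4 knockdowns. Over the alternatives 1 to 10 were lower and 0 to 3 higher in SALL4 siRNA cells, with 1 lower and 1 higher against control replicate 1 alone, 8 lower against control replicate 2 alone and 3 lower with only the groups compared. Leaving out Luciferase replicate 2 or Control replicate 2 gave 4 lower, and leaving out SALL4 replicate 1 or 2 gave 5 or 3. In VRTN siRNA cells 0 to 9 were lower, with 0 against Luciferase alone, 2 without VRTN replicate 2 and 9 without SALL4 replicate 3. The medians were -0.36 with SALL4 siRNA, -0.40 with VRTN siRNA, 0.09 with DSCC1 siRNA and -0.13 with SEPHS1 siRNA. CDH1 had 145, 150 and 150 CPM in the SALL4 libraries and 144, 135 and 180 in the VRTN libraries, against 195 and 290 CPM for Luciferase and 200 and 325 CPM for Control. The log2 fold changes were -0.77 (adjusted p = 0.000995) with SALL4 siRNA and -0.72 (adjusted p = 0.00404) with VRTN siRNA. Against control replicate 1 neither was called, at -0.42 (adjusted p = 0.125) and -0.37 (adjusted p = 0.322), and the VRTN call was lost without VRTN replicate 2 (0.0597). EPCAM, an epithelial adhesion molecule, was lower in SALL4 siRNA cells (-0.78, adjusted p = 0.000758), and CDH3, P-cadherin, in VRTN siRNA cells (-0.70, adjusted p = 0.00166; -0.47 and adjusted p = 0.114 against control replicate 1). PKP2, a desmosomal plakophilin, and PRSS8, the protease prostasin, were higher in SALL4 siRNA cells, at 0.88 (adjusted p = 0.027) and 0.50 (adjusted p = 0.0352). The call of each was lost without SALL4 replicate 1 (adjusted p = 0.0657 and 0.364), SALL4 replicate 2 (0.168 and 0.184) or Control replicate 1 (0.0766 and 0.08), that of PKP2 without Luciferase replicate 1 (0.0881), and that of PRSS8 without Luciferase replicate 2 (0.0666).

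**Figure D4:**
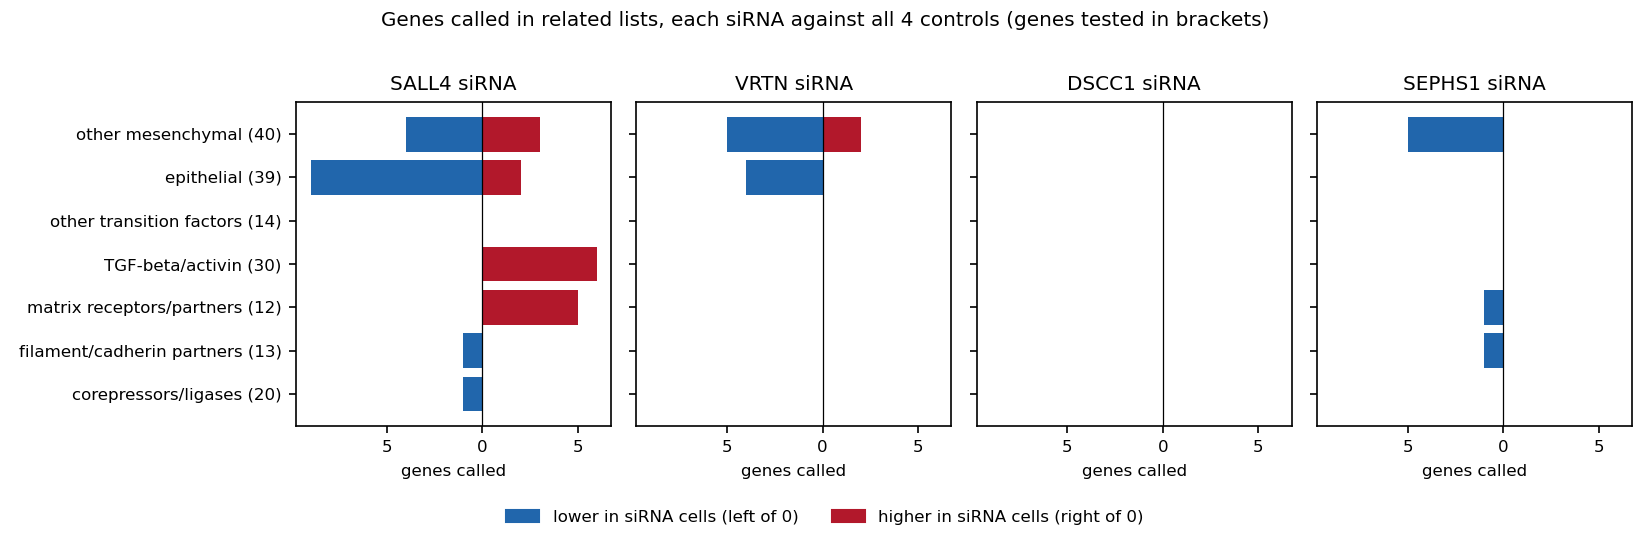
Number of genes called lower (left of 0) and higher (right of 0) in each related list, in the 4 knockdowns against all 4 controls, with the number tested in brackets. SALL4 siRNA cells have called genes in 6 of the 7 lists, and DSCC1 siRNA cells have none. Over all genes 2.98%, 1.13%, 0.0455% and 1.53% were called in SALL4, VRTN, DSCC1 and SEPHS1 siRNA cells.

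Signals that can start the transition, and proteins that act with its factors, were counted next. Of 30 genes of TGF-beta and activin signalling, the pathway that follistatin antagonises and that also maintains the pluripotent state, 6 were higher and 0 lower in SALL4 siRNA cells, where 1.85% of all genes were called higher, and 0 were called in VRTN, DSCC1 and SEPHS1 siRNA cells. In SALL4 siRNA cells 1 to 9 were higher over the alternatives, with 1 against control replicate 2 alone, 5 against control replicate 1 alone, 2 against Luciferase or Control alone, and 9 in limma-voom. Leaving out the first SALL4 replicate gave 3, and leaving out the second gave 1. LEFTY2 and LEFTY1, inhibitors of NODAL, were among the 6, at 10.3 ± 3.70 against 1.98 ± 1.29 CPM (2.37, adjusted p = 0.0028) and 8.79 ± 2.05 against 2.37 ± 0.466 CPM (1.90, adjusted p = 0.0046). Neither was called against control replicate 2 (1.93, adjusted p = 0.07, and 1.70, adjusted p = 0.0671), and LEFTY1 was lost without SALL4 replicate 2 (0.0597). Among 14 further transition factors, such as those of the FOXC, PRRX and TCF families, edgeR called 0 in all 4 knockdowns. Over all genes it called 2.98% in SALL4, 1.13% in VRTN, 0.0455% in DSCC1 and 1.53% in SEPHS1 siRNA cells. Over the 28 alternatives, 0 of these factors were called in SALL4, VRTN or DSCC1 siRNA cells, and at most 1 in SEPHS1 siRNA cells. Of 20 corepressors and ubiquitin ligases that act on SNAIL and ZEB proteins, 1 was called: KDM1A, the histone demethylase recruited by SNAIL, was lower in SALL4 siRNA cells, at 48.5 ± 14.5 against 88.8 ± 6.32 CPM (-0.87, adjusted p = 0.000541).

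Partners of the marker proteins were also called. Of 12 receptors and matrix partners of fibronectin and tenascin-C, 5 were higher in SALL4 siRNA cells, where 1.85% of all genes were called higher. In either direction 2.98% of all genes were called there, and 1.53% in SEPHS1 siRNA cells. Over the alternatives 3 to 5 of the 12 were higher in SALL4 siRNA cells. ITGB5, an integrin beta chain, had 89.4 ± 5.596 against 39.7 ± 6.17 CPM (1.18, adjusted p = 5.08e-06), and FBLN1, the matrix protein fibulin-1, had 257 ± 55.7 against 145 ± 22.2 CPM (0.83, adjusted p = 0.000185). Both were called against either control number, at 1.35 and 1.01 for ITGB5 and at 0.67 and 1.00 for FBLN1. In SEPHS1 siRNA cells FBN2, fibrillin-2, was lower, at 3.63 ± 1.38 against 9.97 ± 2.22 CPM (-1.45, adjusted p = 0.0119), and the call was lost without SEPHS1 replicate 1 (0.0794) or replicate 3 (0.0514). Of 13 partners of vimentin filaments and N-cadherin, NES, the intermediate filament nestin that assembles with vimentin, was lower in SALL4 siRNA cells, at 80.2 ± 8.52 against 128 ± 3.89 CPM (-0.67, adjusted p = 0.000784). PLEC, the filament linker plectin, was lower in SEPHS1 siRNA cells (-0.45, adjusted p = 0.0456), a call kept in 7 of 28 alternatives and in 4 of the 16 that leave out 1 library.

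For the 8 genes averaging at least 1 log2 CPM, the 3 named genes with the most similar profile over the 16 libraries were found by Pearson's r of log2 CPM among 11892 genes. These values are descriptions, since libraries of a group share their siRNA and the libraries fell into sets. VIM was most like MEX3D (r = 0.914), JUND (0.907) and INPPL1 (0.902), and FN1 most like FZD5 (r = 0.954), PRICKLE1 (0.929) and SERPINB9 (0.898). CDH2 was most like SH3BP4 (r = 0.912), TOX (0.909) and UBE2H (0.906). Genes with a profile like that of TNC included PDGFRB (r = 0.942) and PTPRD (0.916), and FST was most like CPXM1 (r = 0.932), SPRY4 (0.911) and SLC2A1 (0.905). For the factors, SNAI1 was most like ADM2 (r = 0.857), SNAI2 most like CSF1 (r = 0.86) and ZEB2 most like MAGI2-AS3 (r = 0.885). The spread between replicates, as edgeR's dispersion, set TNC, FST, ZEB2 and VIM above 99% of genes of similar level (99.95%, 99.95%, 99.7% and 99.1%). FN1 stood at 73.9% and SNAI1 at 45.6%.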

How the data were processed

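The authors' deposited table holds raw counts of reads per Ensembl gene in 16 libraries of polyadenylated RNA, prepared with a Lexogen SENSE kit without molecular identifiers. Per the submitters' processing notes, the tools were STAR 2.4.0.1 and HTSeq 0.9.1 and the build GRCh38. The annotation release, the strand setting and the handling of reads shared between genes are not given in the sources used here. Per the labels, the RNA came from biological replicates made independently.

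Names came from a gene name table (56558 of the 60675 identifiers) and GENCODE 29 (497). After filterByExpr and TMM scaling, edgeR 4.0.16 (R 4.3.3) fitted quasi-likelihood models to 6 groups, contrasting each siRNA with the mean of Luciferase and Control. Benjamini-Hochberg adjustment covered 19772 genes. A second model grouped the controls by replicate number. SEs are the size of the log2 change divided by the square root of F. Of these steps, only the main edgeR fit of each siRNA against the controls was tested on simulated counts. The 10 genes and all lists were chosen with earlier results of these data known. Named are these 10, up to 2 called genes per list, knockdown and direction with the smallest p, and the genes most like each; some genes this rule names are not reported here. ETS1, KDR and the called cell type markers were named after their values were seen. Alternatives included DESeq2 1.42.0 and limma 3.58.1 (voom with quality weights), other scalings and filters, single control groups, a replicate block and each library left out.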

Additional observations from a re-analysis of the deposited data

How the results depend on the processing

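Counts below are of the 10 genes called, of which 3 were called with SALL4 siRNA, 2 with VRTN, 0 with DSCC1 and 2 with SEPHS1, against all controls, 1 for SALL4 against VRTN, 0 for DSCC1 against SEPHS1 and 1 for control replicate 2 against 1. With no filter on low counts they were 5 for SALL4, 3 for DSCC1, 5 for SEPHS1, 3 for SALL4 against VRTN, 2 for DSCC1 against SEPHS1 and 5 for the control numbers. A stricter filter left 1 for SEPHS1. DESeq2, limma-voom, only the groups compared, Control alone and control replicate 2 alone each left 0 for SEPHS1. With only the groups compared, VRTN had 1, DSCC1 against SEPHS1 had 1 and the control numbers had 3. Luciferase alone left 1 each for VRTN and SEPHS1. Control replicate 1 alone gave 1 for VRTN, 2 for DSCC1 and 4 for SEPHS1, and control replicate 2 alone gave 5 for SALL4 and 4 for VRTN. Leaving out 1 library at a time gave 3 to 7 for SALL4, 1 to 4 for VRTN, 0 to 3 for DSCC1, 0 to 5 for SEPHS1, 1 to 3 for SALL4 against VRTN, 0 to 1 for DSCC1 against SEPHS1 and 1 to 4 for the control numbers. Where a control siRNA then had a lone library, that library was assumed to vary like the other groups. The cause of these changes was not tested.

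Over all 19772 genes, 590, 223, 9 and 303 were called for SALL4, VRTN, DSCC1 and SEPHS1. DESeq2 called 814, 392, 47 and 519, limma-voom 1291, 348, 41 and 158, only the groups compared 349, 176, 37 and 198, and no filter 847, 397, 99 and 516. Luciferase alone gave 236, 89, 2 and 128, and Control alone 280, 95, 2 and 103.

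Same-numbered libraries of knockdowns and controls had correlated deviations of -0.0216 to 0.0495 over 5639 genes, so no pairing by number was seen between them. With 2 libraries of each control siRNA, a knockdown and a control siRNA give a single value, which cannot settle whether the numbers pair them. For Luciferase and Control the value was 0.369, for SALL4 and VRTN 0.0454, 0.139 and 0.379, and for the other knockdown pairs -0.11 to 0.154. With the replicate number as a block, 5 genes were called for SALL4, 3 for VRTN, 3 for SALL4 against VRTN and 1 for DSCC1 against SEPHS1, with 820, 283, 15 and 270 genes in all for the 4 knockdowns, and SNAI2 with SEPHS1 siRNA stood at 0.237. The added calls against controls were TNC (2.282, edgeR adjusted p = 1.73e-05) and FST (2.309, adjusted p = 1.58e-06) for SALL4 and ZEB2 (3.094, adjusted p = 0.0375) for VRTN.

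No value called in the main edgeR fits changed direction. Some values not called there were called under another setting and changed sign between settings. VIM with VRTN siRNA, for example, was called at 0.769 against control replicate 2 alone and was negative against replicate 1 alone. The following log2 values, not called in the main fits, changed direction. With Control alone, ZEB1 stood at -0.201 for SALL4, -0.234 for VRTN and -0.867 for SEPHS1, SNAI1 at -0.048 for SEPHS1 and SNAI2 at 0.209 for SEPHS1. With control replicate 1 alone, ZEB1 stood at -0.239, -0.272 and -0.904 for SALL4, VRTN and SEPHS1, ZEB2 at -0.24 for SALL4, SNAI1 at 0 for SEPHS1, and VIM, TNC and FST at -0.369, -0.495 and -0.741 for VRTN. With control replicate 2 alone, VIM, FN1, CDH2 and SNAI2 stood at 0.485, -0.035, 0.228 and 0.071 for DSCC1, and FST and SNAI2 at 0.073 and 0.452 for SEPHS1. Leaving out 1 library gave -0.411 to 3.949 for ZEB1 with SALL4 siRNA. With VRTN siRNA it gave -0.153 to 0.471 for VIM, -0.164 to 1.247 for TNC and -0.327 to 1.434 for FST. With DSCC1 siRNA it gave -0.438 to 0.186 for VIM, -1.112 to 0.211 for SNAI2, -7.352 to 1.974 for ZEB1 and -8.996 to 0.199 for ZEB2. With SEPHS1 siRNA it gave -0.732 to 0.591 for SNAI2, -0.439 to 3.282 for ZEB1 and -6.358 to 1.264 for ZEB2. TWIST1 had 0 counts in 12 libraries, ZEB2 in 4 and ZEB1 in 3.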
